A study of Mus musculus with 6 samples.

Results

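The clustered histone genes are the genes for linker and core histones that lie in 4 groups on mouse chromosomes 13, 3, 11 and 6 and carry the symbols *Hist1* to *Hist4*. Every gene of the expression table whose symbol begins with *Hist1h*, *Hist2h*, *Hist3h* or *Hist4h* was taken as a member, with no condition on its level. This gave 67 of the 22611 genes in the table, made up of 6 genes for H1, 19 for H2A, 18 for H2B, 11 for H3 and 13 for H4. RNA was sequenced from epithelium that had been released with EDTA from the duodenum, the first part of the small intestine, in 3 *Esrra*-/- mice (labelled ESRRAKO) and in 3 littermate mice (labelled WT), with 1 library per mouse. The *Esrra*-/- mice lack estrogen-related receptor α in every tissue from the germline on. All 6 mice had eaten a high-fat diet for several weeks, both sexes were used, and their ages are not given in the sources used here. The colony was also bred to a *Villin-CreERT2* transgene, which drives a tamoxifen-inducible Cre in intestinal epithelium, and whether these 6 mice carried it is not given in those sources. Genes of chromosome Y summed to 27.3 to 46.7 FPKM in 4 libraries and to 0.0487 and 0.222 FPKM in WT replicate 3 and *Esrra*-/- replicate 3, so these libraries stand apart from the others and 1 is in each genotype.

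Histones are the proteins around which DNA is wound. H2A, H2B, H3 and H4 form the core of the nucleosome and H1 binds the DNA between nucleosomes. Most clustered histone genes are switched on in S phase, when new DNA has to be packed. Their mRNAs have no introns and no poly(A) tail, and end in a short RNA hairpin that is bound by SLBP. Some clustered genes also give longer, polyadenylated transcripts, which are known from cells that have stopped dividing. In the intestine the dividing cells lie in the crypts and the absorptive cells of the villi no longer divide. The labels name the TruSeq RNA kit v2 for the libraries, a kit that captures RNA by its poly(A) tail, so a level given here is that of the captured RNA and not of all histone mRNA. How far capture differs between members was not tested.

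The hairpin is shown first for the members on which the results turn, because it is the feature that marks these genes as a class. The sequences were read from the mm9 genome on the strand of each gene, 5′ to 3′, and the capitals mark the 16 bases of the hairpin.
Hist1h2bc: ttccaaaGGCTCTTTTCAGAGCCacccact
Hist1h2ac: acccaaaGGCTCTTTTCAGAGCCcccactt
Hist1h2ao: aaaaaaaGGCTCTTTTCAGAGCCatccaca
Hist1h2ap: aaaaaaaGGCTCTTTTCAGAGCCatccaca
Hist2h2aa1: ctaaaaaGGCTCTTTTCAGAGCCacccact
Hist1h1c: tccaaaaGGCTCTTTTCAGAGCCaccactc
Hist1h4i: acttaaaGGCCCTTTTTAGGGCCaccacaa
Hist1h4n: aactaaaGGCCCTTTTCAGGGCCatccaat
Hist1h4k: tacaaaaGGCCCTTTTCAGGGCCacccact
The hairpin was searched as GGCNCTT joined to NTNAG and NGCC, on the sense strand within 200 bases of the stop codon. It was found in 58 of the 67 members (86.6%) and in 2 of 22171 other protein-coding genes of the GENCODE M1 annotation (0.00902%). Of those 2, 1 is *H2afx*, a histone gene outside the clusters. For members the stop codon was that of the transcript with the longest coding sequence. A hairpin of another transcript can thus be missed in *Hist1h2bp*, *Hist1h2bq* and *Hist1h2br*, which have more than 1 and were counted as without it. The form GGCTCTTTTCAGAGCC was held by 36 members. Another 9 had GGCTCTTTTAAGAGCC and 8 had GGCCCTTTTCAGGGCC.

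Members differed in how far their annotated transcripts ran past this hairpin. In 18 of the 58 members the annotated transcript went on for more than 100 bases beyond it. *Hist1h1c*, for the linker histone H1.2, was annotated for 839 bases past the hairpin, and the spliced transcript of *Hist1h2bc*, an H2B gene, ended 7826 bases past it on the genome. The polyadenylation signal AATAAA stood in the last 50 bases of an annotated transcript in 11 of the 67 members, among them *Hist1h1c* and *Hist1h2bc*. Of the 18 members annotated past the hairpin 5 had a mean above 1 FPKM (27.8%), against 9 of the 40 that ended at or within 100 bases of it (22.5%). FPKM counts sequenced fragments relative to the length of the transcript and the total of mapped fragments of a library. *Hist1h2ao* and *Hist1h2ap*, whose annotated transcripts stopped before the hairpin, were at 74.2 FPKM, and *Hist1h2ac*, annotated for 2010 bases past it, was at 0.586 FPKM.

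Many H2A and H2B genes lie head to head and share the DNA between their start sites. There were 12 such H2A and H2B pairs among the members, with 167 to 305 bases between the annotated starts, and 1 further pair of an H2B and an H3 gene. The stretch between the starts is shown for 3 of the 5 pairs with a gene above a mean of 1 FPKM, on the plus strand of mm9, with capitals for the octamer ATTTGCAT and for the CCAAT and TATAAA boxes on either strand.
Hist1h2ac and Hist1h2bc, chr13:23775818-23776067: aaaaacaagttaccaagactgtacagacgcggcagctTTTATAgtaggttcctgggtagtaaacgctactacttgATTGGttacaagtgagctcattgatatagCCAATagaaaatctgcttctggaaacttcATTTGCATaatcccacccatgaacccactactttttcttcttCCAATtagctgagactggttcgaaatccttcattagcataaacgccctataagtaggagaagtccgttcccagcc
Hist1h2bq and Hist1h2ao, chr13:21902069-21902235: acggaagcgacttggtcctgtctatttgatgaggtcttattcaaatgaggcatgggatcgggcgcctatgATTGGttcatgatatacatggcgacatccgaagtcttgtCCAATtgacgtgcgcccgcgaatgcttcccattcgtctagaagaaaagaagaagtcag
Hist2h2ac and Hist2h2be, chr3:96024804-96025043: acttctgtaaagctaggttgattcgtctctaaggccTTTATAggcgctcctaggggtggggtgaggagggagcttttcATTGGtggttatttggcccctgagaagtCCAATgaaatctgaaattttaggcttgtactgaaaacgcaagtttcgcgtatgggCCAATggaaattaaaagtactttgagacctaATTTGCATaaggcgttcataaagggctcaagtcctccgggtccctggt
The 167 bases between *Hist1h2br* and *Hist1h2ap* differed from those between *Hist1h2bq* and *Hist1h2ao* at 0 positions. Over promoters of 250 bases before to 50 bases after the start, read on both strands, CCAAT was present in 57 of the 67 members (85.1%) and in 38.0% of all 22238 protein-coding promoters. It was in all 19 H2A and all 18 H2B promoters but in 4 of the 13 H4 promoters. The octamer, a binding sequence of OCT1 known from H2B promoters, was in 15 members (22.4%), all of them H2A or H2B genes, and in 1.73% of all promoters. TATAAA was in 38 members (56.7%) and in 13.4% of all promoters. The ESRR motif, TCA joined to AGGTCA, was in 0 of the 67 member promoters and in 0.360% of all promoters. Its part AAGGTCA was in 1 member, *Hist1h2aa* (1.49%), against 3.93% of all promoters. With so low a share of all promoters, a count of 0 in 67 does not set the members apart. Sites farther from the starts and the ESRRA sites that the authors mapped by ChIP-seq were not examined.

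Expression of the clustered histone genes was uneven. A mean above 10 FPKM over the 6 libraries was reached by 6 members, 10 lay between 1 and 10 FPKM, 49 were above 0 and up to 1 FPKM, and 2, *Hist1h2aa* and *Hist1h2ba*, were listed at 0 in every library. The median of the members' means was 0.412 FPKM, and that of all genes in the table was 0.654 FPKM. The 6 abundant members held 91.6% of the FPKM of all members. *Hist1h2bc* alone held 40.9%, at 206 FPKM, and the other 17 H2B genes were at 1.59 FPKM or less.

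**Figure D1:**
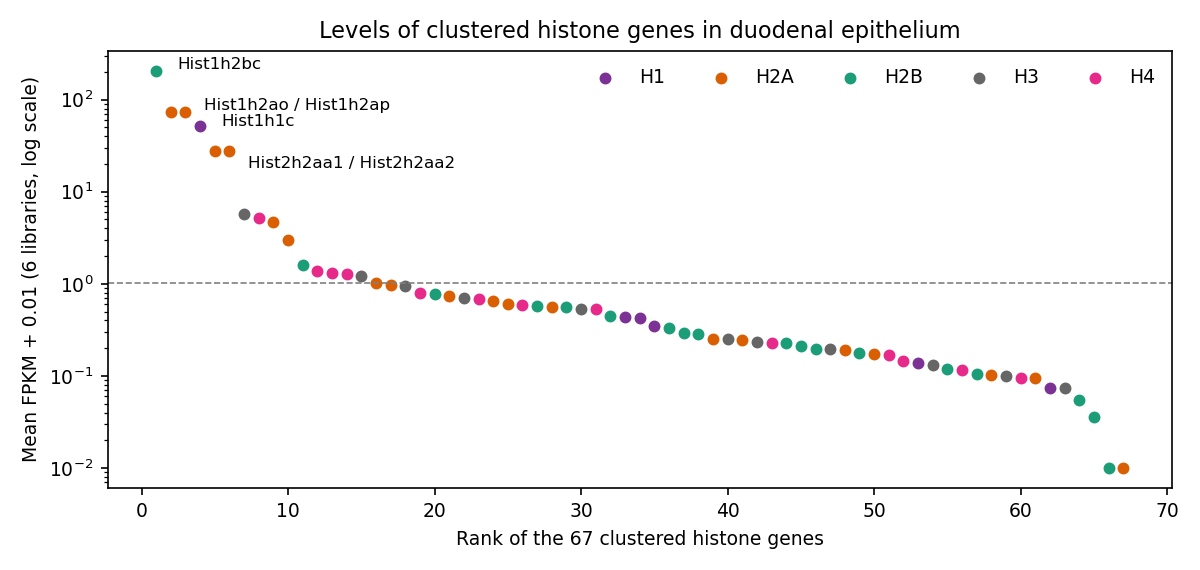
Mean FPKM over the 6 libraries, plus 0.01, on a log scale for each of the 67 clustered histone genes in order of level, coloured by histone class, with a dashed line at the filter of 1 FPKM. The 6 members above 10 FPKM stand apart from the rest, and 51 members lie below the line.

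Means below are given ± SD over the 3 mice of a genotype. Summed over its genes, the H2A class had 214, 313 and 220.1 FPKM in WT replicates 1 to 3 and 173, 201 and 181 FPKM in the *Esrra*-/- replicates. These sums did not overlap between the genotypes, but they rest on *Hist1h2ao* and *Hist1h2ap*, which have the same values and both enter them. The other 17 H2A genes summed to 51.7, 55.5 and 82.0 FPKM in WT and 89.8, 59.0 and 74.1 FPKM in *Esrra*-/-, with overlap, a sum added after the data had been seen. For H2B the sums were 125, 152 and 264 FPKM in WT and 215, 216 and 301 FPKM in *Esrra*-/-, and those for H1 were 30.3, 42.5 and 64.3 FPKM and 72.2, 45.5 and 66.3 FPKM. These sums overlapped between the genotypes. The sum over all members averaged 496 ± 96.7 FPKM over the WT mice and 514 ± 49.5 FPKM over the *Esrra*-/- mice (SD, n = 3), so the genotypes lay closer together than the mice within each. The sums for H3 were 8.71 ± 1.43 FPKM (WT) and 11.4 ± 3.88 FPKM (*Esrra*-/-), and those for H4 were 11.9 ± 2.12 and 12.8 ± 2.48 FPKM (SD, n = 3), with overlap in both classes.

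Histone genes resemble one another, which limits how well reads can be given to single members. For each member the share of its 31-base words that occur in no other protein-coding gene of the annotation was counted, 31 bases being the usual word length of the tool the authors used. The median share was 47.4%. It was under 20% in 16 members, of which 9 are among those with a mean above 1 FPKM, and above 80% in 13 members. *Hist1h2bc* had 50.1% and *Hist1h1c* 88.6%. *Hist1h2ao* and *Hist1h2ap* have identical transcripts, no word of their own and the same value in every library. The same holds for *Hist2h2aa1* and *Hist2h2aa2*. Each of these pairs is therefore 1 measurement listed under 2 symbols. *Hist1h2bq* and *Hist1h2br* also share a transcript and 98.7% of their words, yet their listed values differed, with means of 0.436 and 0.108 FPKM. *Hist1h4m* and *Hist1h4n* have the same coding sequence, and *Hist1h4n* shares 85.2% of its words with *Hist1h4m*. The annotated *Hist2h3c1* starts inside *Hist2h2aa1*, and *Hist3h2a* shares 34.6% of its words with *Trim17*, so these values are uncertain too.

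To ask how loss of ESRRA changed the members, log2(FPKM + 0.1) was compared between the genotypes with limma, which fits each gene by a linear model and borrows information on variance from the other genes, over the 10596 genes with a mean above 1 FPKM. Calls used the thresholds of the study, an unadjusted p below 0.05 together with a log2 fold change of *Esrra*-/- relative to WT of more than 0.58 in either direction. Fold changes on this scale understate the change of low genes. *Esrra* itself was at 49.4, 73.5 and 103.6 FPKM in WT and 10.4, 9.42 and 8.72 FPKM in *Esrra*-/-, so the libraries bore out their labels. Of the 67 members 16 were tested, and these are the members with enough signal rather than a sample of the class. *Hist1h4n*, *Hist1h4k* and *Hist2h3b* had a WT mean under 1 FPKM and passed only through their *Esrra*-/- values, and *Hist1h2ag* passed only through WT. The counts and the median over the 16 are therefore descriptions, from which no direction of the class is read. Among the 16, 4 were called, where 4.63% of all genes tested were called. On the lower side were 2, *Hist1h2ao* and *Hist1h2ap* (background 3.28%). As these share their reads, they count as 1 measurement. *Hist1h4n* and *Hist1h4k* were called higher, or 2 of 16 (background 1.35%), and both had passed the filter only through *Esrra*-/-. With FPKM above 1 required in all 6 libraries, 0 members were called higher, as neither gene was then tested. With no filter, 8 of 65 members were called lower and 5 higher, in a fit of 17679 genes. The shares of all genes called in that fit are not given here, so these counts stand without a background. With adjustment over all genes tested, limma gave 0 members an adjusted p under 0.05, where 0.0378% of all genes tested had one. The 4 called members had an unadjusted p under 0.05, as had 10.8% of all genes tested, and the lowest adjusted p was 0.328. The median log2 fold change of the 16 was 0.28, and 0.20 without *Hist2h3b*, which was listed at 0 in all WT libraries, against 0.030 for all genes tested. With no filter it was −0.062 over 65 members, so its sign depended on the filter. Genotypes that did not overlap were found for *Hist1h4n* and *Hist1h4k*, with *Esrra*-/- higher, and for 0 of the 16 with *Esrra*-/- lower, beside 8.45% and 9.14% of all genes tested, while members lower throughout, such as *Hist1h3g*, lay under the filter.

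**Figure D2:**
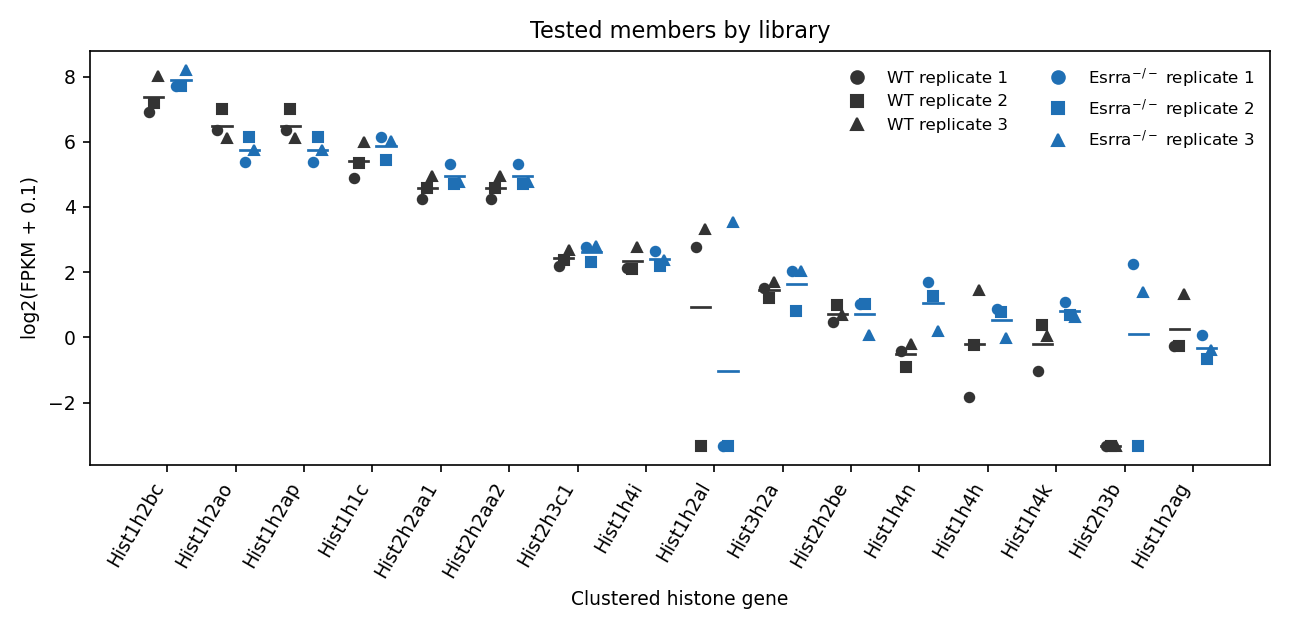
log2(FPKM + 0.1) of the 16 tested members in each library, WT in black and *Esrra*-/- in blue, with a marker shape for each replicate and a line at the mean of each genotype. The genotypes overlap for 14 members and are apart for *Hist1h4n* and *Hist1h4k*, while *Hist1h2al* and *Hist2h3b* have libraries at the floor of the scale, where they are listed at 0.

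**Figure D3:**
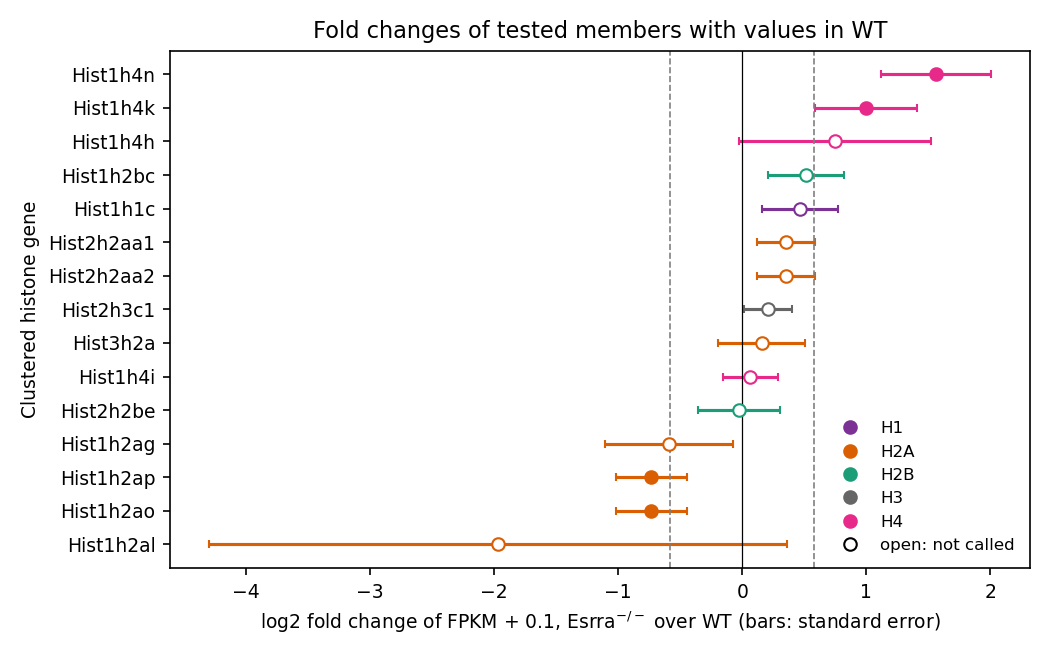
log2 fold change of FPKM + 0.1 in *Esrra*-/- over WT for the 15 tested members with values in WT, with bars for 1 standard error and dashed lines at 0.58 in each direction. Filled points are the called members, *Hist1h2ao* and *Hist1h2ap* on the lower side and *Hist1h4n* and *Hist1h4k* on the higher side.

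The H2A genes held both a called decrease and genes with no call. *Hist1h2ao* and *Hist1h2ap* lie on chromosome 13 at 21902236 to 21902754 on the plus strand and at 21924926 to 21925444 on the minus strand of mm9, each as a single exon. Their common value was 81.4, 129 and 69.1 FPKM in WT replicates 1 to 3 and 41.5, 71.0 and 53.4 FPKM in *Esrra*-/- replicates 1 to 3. WT replicate 2 was the highest library and *Esrra*-/- replicate 1 the lowest, and *Esrra*-/- replicate 2 lay above WT replicate 3, so the genotypes overlapped. The WT mean was 93.0 ± 31.4 FPKM and the *Esrra*-/- mean 55.3 ± 14.8 FPKM, a log2 fold change of −0.73 with a standard error of 0.28 (limma, unadjusted p = 0.0346, adjusted p = 0.422). The call was lost with WT replicate 1, WT replicate 2, *Esrra*-/- replicate 1 or *Esrra*-/- replicate 3 left out, when the log2 fold change was −0.80, −0.47, −0.54 and −0.72. It was also lost under quantile normalization, at −0.81 (limma, unadjusted p = 0.0515).

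*Hist2h2aa1* and *Hist2h2aa2*, H2A genes on chromosome 3, had 18.8, 23.8 and 30.6 FPKM in WT and 40.0, 26.2 and 27.3 FPKM in *Esrra*-/-. The genotypes overlapped, and the log2 fold change was 0.35 with a standard error of 0.23 (limma, adjusted p = 0.611). It was 0.16 without *Esrra*-/- replicate 1, 0.18 without WT replicate 1 and 0.53 without WT replicate 3, with no call in any of these fits. Of the other H2A genes tested, *Hist3h2a* averaged 2.69 ± 0.477 FPKM (WT) and 3.22 ± 1.36 FPKM (*Esrra*-/-) and *Hist1h2ag* averaged 1.29 ± 0.960 and 0.718 ± 0.215 FPKM, and the mice of both genotypes overlapped. *Hist1h2al*, which lies on chromosome 13 outside the main cluster, was listed at 6.75, 0 and 9.94 FPKM in WT and at 0, 0 and 11.4 FPKM in *Esrra*-/-. Its values switched between 0 and several FPKM within each genotype, and it shares 82.2% of its words with *Hist2h3c1*. The annotated *Hist2h3c1* takes in most of the H2A gene *Hist2h2aa1*, and in which part of it the shared words lie was not counted.

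*Hist1h2bc*, the most abundant member, lies on chromosome 13 at 23776068 to 23784357 on the plus strand and has 2 exons. It had 120.3, 145 and 258 FPKM in WT and 209, 210.4 and 297 FPKM in *Esrra*-/-. WT replicates 1 and 2 were the lowest libraries, while WT replicate 3 lay above *Esrra*-/- replicates 1 and 2. The means were 174 ± 73.5 and 239 ± 50.4 FPKM, with a log2 fold change of 0.51 and a standard error of 0.30 (limma, adjusted p = 0.582), short of a call. Without WT replicate 3 the log2 fold change was 0.83 and the gene was called higher (limma, unadjusted p = 0.00767), and without both WT replicate 3 and *Esrra*-/- replicate 3 it was 0.67 and called, an alternative chosen after the data had been seen. It was 0.28 without WT replicate 1 and 0.34 without *Esrra*-/- replicate 3, with no call. *Hist2h2be*, the other H2B gene tested, had 1.29, 1.91 and 1.52 FPKM in WT and 1.94, 1.92 and 0.945 FPKM in *Esrra*-/-, with overlap. *Hist1h2bg*, the next H2B gene by level and not tested, had 0.601, 0.609 and 0.575 FPKM in WT and 1.39, 0.820 and 0.582 FPKM in *Esrra*-/-.

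*Hist1h1c*, the linker histone gene at 23830676 to 23832235 on chromosome 13, had its lowest values in the same libraries as *Hist1h2bc*. Its values were 29.6, 40.7 and 63.3 FPKM in WT and 70.3, 43.5 and 65.5 FPKM in *Esrra*-/-, so WT replicate 3 again stood with the *Esrra*-/- libraries. The log2 fold change was 0.46 with a standard error of 0.30 (limma, adjusted p = 0.611), and without WT replicate 3 it was 0.75 and called higher (limma, unadjusted p = 0.0246). Without WT replicate 1 it was 0.21, and 0.33 without *Esrra*-/- replicate 1, again with no call. The other 5 H1 genes were at 0.420 FPKM or less. *Hist1h1a*, the next by level, had 0.185, 0.468 and 0.442 FPKM in WT and 0.485, 0.720 and 0.223 FPKM in *Esrra*-/-. *Hist1h1e* had 0.184, 0.654 and 0.221 FPKM in WT and 0.581, 0.719 and 0.112 FPKM in *Esrra*-/-, and both genes overlapped between the genotypes.

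Among the H4 genes, which all encode the smallest core histone, *Hist1h4n* had 0.641, 0.432 and 0.763 FPKM in WT and 3.11, 2.29 and 1.04 FPKM in *Esrra*-/-. All 3 *Esrra*-/- libraries lay above all 3 WT libraries, which were under 1 FPKM, so that the gene was tested only through its *Esrra*-/- values. The log2 fold change was 1.56 with a standard error of 0.44 (limma, unadjusted p = 0.00905, adjusted p = 0.328). With a pseudocount of 1 it fell to 0.91, with the call kept. Its near-copy *Hist1h4m* had 0.482, 1.46 and 0.287 FPKM in WT and 0.750, 0.468 and 0 FPKM in *Esrra*-/-. Added together the pair had 1.12, 1.89 and 1.05 FPKM in WT and 3.86, 2.76 and 1.04 FPKM in *Esrra*-/-. The sum overlapped between the genotypes and was not called, with a log2 fold change of 0.73 and a standard error of 0.48 (limma, unadjusted p = 0.168), a combination chosen after the values had been seen.

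*Hist1h4k* had 0.394, 1.20 and 0.935 FPKM in WT and 2.03, 1.52 and 1.43 FPKM in *Esrra*-/-, again with no overlap and a WT mean, 0.843 FPKM, under the filter. Its log2 fold change was 1.00 with a standard error of 0.41 (limma, unadjusted p = 0.0447, adjusted p = 0.445), and 13.8% of its words were its own. The call was lost in each of the 6 fits that left out 1 library except that without WT replicate 2, over a range of 0.59 to 1.29. It was also lost with a pseudocount of 1, where the log2 fold change was 0.55. With a term for transcripts of chromosome Y the log2 fold change stayed at 1.00 and the unadjusted limma p was 0.0553. *Hist1h4i*, the most abundant H4 gene, had 4.30, 4.21 and 6.73 FPKM in WT and 6.21, 4.48 and 5.03 FPKM in *Esrra*-/-. Its log2 fold change was 0.065 with a standard error of 0.22, and −0.062 to 0.28 with each library left out. *Hist1h4h* had 0.184, 0.744 and 2.63 FPKM in WT and 1.72, 1.61 and 0.890 FPKM in *Esrra*-/-, and its WT libraries spanned those of *Esrra*-/-.

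Of the H3 genes, *Hist2h3c1* had 4.48, 5.12 and 6.37 FPKM in WT and 6.74, 4.87 and 6.87 FPKM in *Esrra*-/-. Its log2 fold change was 0.20 with a standard error of 0.19 (limma, adjusted p = 0.734). It was 0.090 without WT replicate 1 and 0.36 without *Esrra*-/- replicate 2, with no call in either fit. *Hist2h3b* was listed at 0 in the 3 WT libraries and in *Esrra*-/- replicate 2 and at 4.69 and 2.51 FPKM in *Esrra*-/- replicates 1 and 3. It shares 80.6% of its words with *Hist2h3c1* and was tested only because of those 2 libraries. *Hist1h3g*, just under the filter at a mean of 0.943 FPKM, had 0.909, 1.23 and 1.63 FPKM in WT and 0.792, 0.737 and 0.367 FPKM in *Esrra*-/-, with *Esrra*-/- below WT throughout.

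Members of a head-to-head pair could differ widely in level. *Hist1h2bc* stood at 206 FPKM and *Hist1h2ac*, which starts 250 bases away in the other direction, at 0.586 FPKM, a ratio of 352. *Hist1h2ac* had 0.470, 0.454 and 0.833 FPKM in WT and 0.734, 0.808 and 0.217 FPKM in *Esrra*-/-, so its lowest library, *Esrra*-/- replicate 3, was the highest for *Hist1h2bc*. In the pairs of *Hist1h2ao* and *Hist1h2ap* the H2A gene was the abundant one, 170-fold above *Hist1h2bq* and 689-fold above *Hist1h2br*. As the copies share their reads, these pairs are 1 case, and no difference is read between the ratios. *Hist2h2be* was 9.86-fold above *Hist2h2ac*. In none of the 13 pairs did both genes pass the filter, and in 5 pairs 1 gene did. Levels here are per length, and both genes of most pairs were too low for an order to be read.

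**Figure D4:**
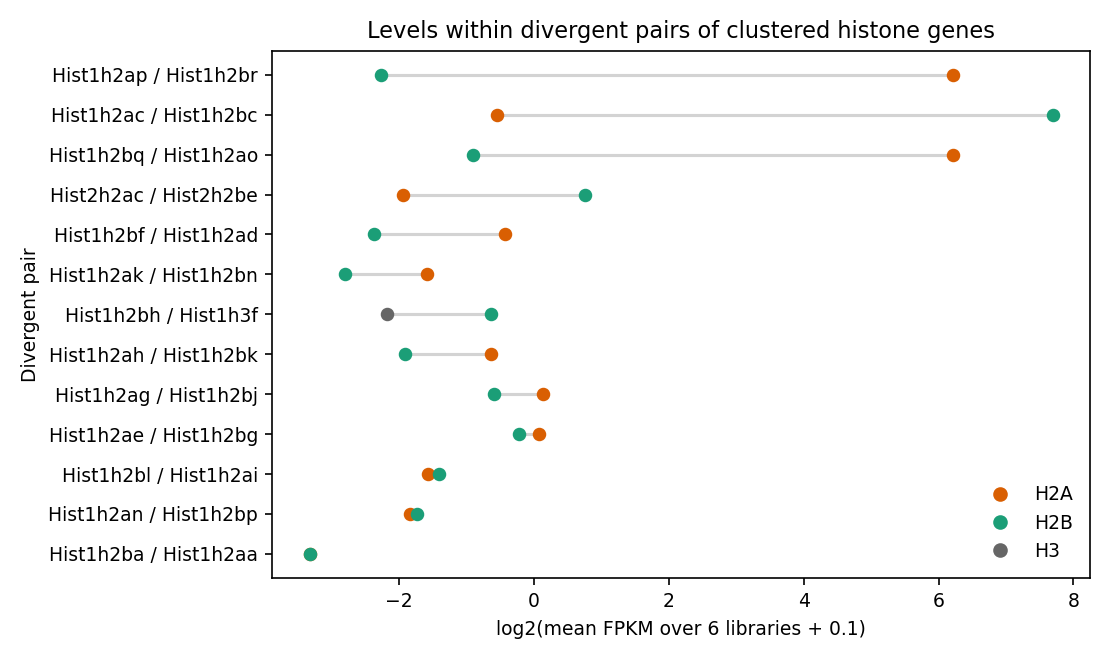
log2 of the mean FPKM over the 6 libraries plus 0.1 for both genes of each of the 13 divergent pairs, joined by a line, with colours for the histone class. The genes of 3 pairs are more than 100-fold apart, of which the pairs of *Hist1h2ao* and *Hist1h2ap* are copies and count as 1 case, and the genes of the pair listed at 0, *Hist1h2ba* and *Hist1h2aa*, fall on 1 point.

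The 51 members that were not tested were listed at 0 in at least 1 library in 37 cases, and 2 of these were at 0 throughout. All 3 *Esrra*-/- libraries lay below all 3 WT libraries for 6 of the other 49, where this was so for 4.38% of all genes with a mean of 1 FPKM or less and a value in some library. They were *Hist1h2bl*, *Hist1h3f*, *Hist1h3g*, *Hist1h4a*, *Hist2h2ac* and *Hist4h4*. *Hist4h4*, the H4 gene on chromosome 6, had 1.18, 1.60 and 0.468 FPKM in WT and 0.406, 0.381 and 0 FPKM in *Esrra*-/-, and *Hist1h2bl* had 0.266, 1.08 and 0.316 FPKM in WT and was listed at 0 in all *Esrra*-/- libraries. The opposite order was seen for *Hist1h2bq*, *Hist1h3e* and *Hist1h4c*, or 3 of 49, against 3.50% of such genes. At this level a value can rest on few fragments, and no test was made.

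Genes of crypt and villus cells varied from library to library, and their values are set here beside those of the abundant members. For a list of 35 mitosis genes the genes' deviations from their means over the 6 libraries (log2 scale) had medians of 0.21, 0.53 and 0.027 in the WT libraries, in order of replicate, and −0.38, 0.085 and −0.46 in the *Esrra*-/- libraries. For 44 S phase genes the medians were 0.19, 0.41 and 0.046 in WT and −0.31, 0.11 and −0.45 in *Esrra*-/-. *Hist1h2ao* and *Hist1h2ap* had the same order of the first 4 libraries as both lists, with WT replicate 2 first, then WT replicate 1, *Esrra*-/- replicate 2 and WT replicate 3. The deviations of the 9 markers of crypt base stem cells were 0.38, 0.48 and 0.045 in WT and −0.23, 0.16 and −0.78 in *Esrra*-/-, in the same order. For 15 markers of villus enterocytes they were −0.16, −0.34 and 0.16 in WT and 0.16, −0.23 and 0.37 in *Esrra*-/-. *Esrra*-/- replicate 3 and WT replicate 3 were the highest libraries for these markers and for *Hist1h2bc*. The orders differed elsewhere. *Esrra*-/- replicate 1 was the highest library for *Hist1h1c* and *Hist2h2aa1*, and WT replicate 1 was the lowest for all 3 genes, where WT replicate 2 was the lowest for the villus markers. In bulk RNA fewer cells of a type and less RNA per cell cannot be told apart, and the part of the cell mixture in the differences between genotypes was not tested.

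**Figure D5:**
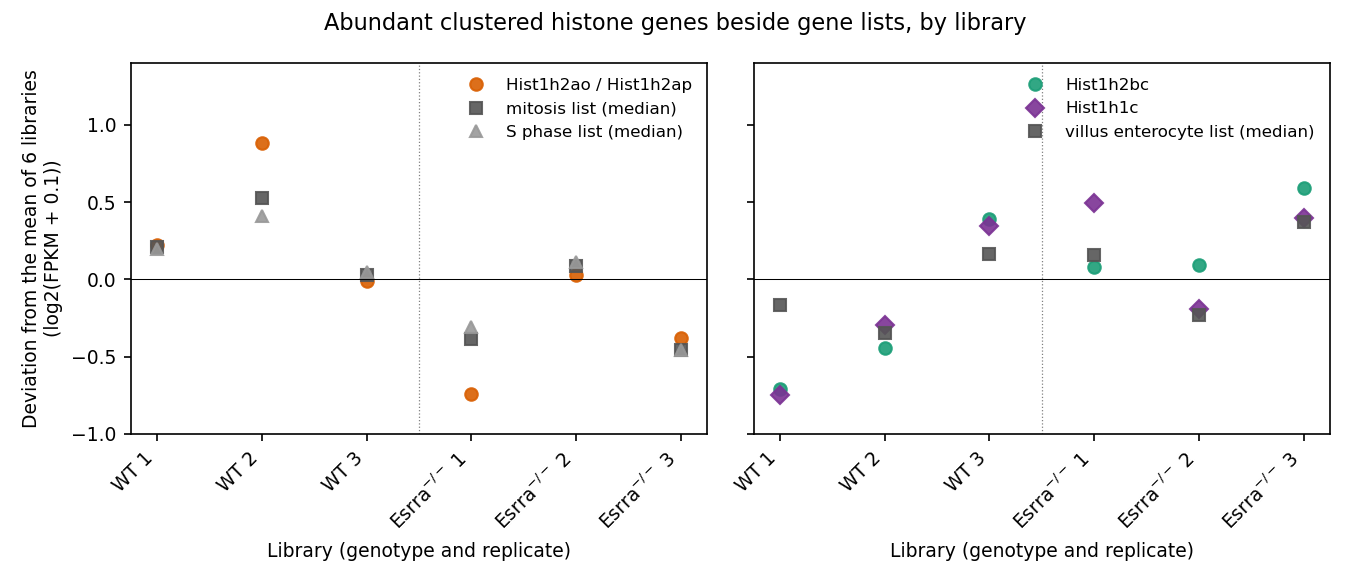
Deviation of log2(FPKM + 0.1) from the mean of the 6 libraries, by library, for *Hist1h2ao* and *Hist1h2ap* beside the medians of the mitosis and S phase lists on the left and for *Hist1h2bc* and *Hist1h1c* beside the median of the villus enterocyte list on the right. WT replicate 2 is highest on the left, and WT replicate 1 is lowest for both genes on the right.

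Of the crypt markers 2 of 9 were called lower, *Smoc2* and *Cdca7*, and of the villus markers 0 of 15 were called (0 with an unadjusted p under 0.05 in limma). Of all genes tested 3.28% were called lower and 1.35% higher, which stands beside each count of this paragraph. For cell types outside the epithelium, the summed level of 10 mesenchymal markers was 2.59 to 4.69 FPKM in WT and 2.69 to 7.53 FPKM in *Esrra*-/-, and 1 of the 10, *Vim*, was above the filter. The 11 markers of T cells and intraepithelial lymphocytes summed to 156 to 277 FPKM in WT and 124 to 320 FPKM in *Esrra*-/-, the 7 B and plasma cell markers to 19.2 to 24.9 and 20.5 to 31.8 FPKM, and the 7 erythroid markers to 8.83 to 45.2 and 14.1 to 54.3 FPKM. Of the 17 genes of these 4 lists above the filter 1, the globin gene *Hba-a2*, was called, on the higher side. Defining markers of immune cells were therefore present, and their part in the results was not tested. Among epithelial markers, 3 of 5 Paneth cell markers were called lower, with *Lyz1* averaging 3529 ± 1541 FPKM (WT) and 1423 ± 904 FPKM (*Esrra*-/-). Of the goblet cell markers 1 of 9 was called lower, *Spink4*, and of the 8 enteroendocrine and 3 tuft cell markers tested none was called.

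Genes of proliferating cells held calls on the lower side, beside the background of 3.28%. In the S phase list 9 of 44 genes tested were called lower and 0 higher, and the log2 fold change was below 0 in 42 (median −0.42). *Rrm2*, a subunit of the enzyme that makes deoxyribonucleotides, fell to 5.01 ± 1.52 FPKM from 9.03 ± 0.922 FPKM, and *Tk1*, thymidine kinase, to 7.59, 11.3 and 8.05 FPKM in *Esrra*-/- from 11.5, 14.6 and 15.6 FPKM in WT. In the mitosis list 6 of 35 were called lower and 1 higher, with a median of −0.50. *Pbk*, a mitotic kinase, fell by 0.80 on the log2 scale, and *Prc1*, a protein of the central spindle, rose by 0.66. The limma adjusted p of these genes was 0.260 to 0.342.

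The genes that make, process and carry histones were given by lists. Replication-independent variants are made outside S phase too, mostly from mRNAs with poly(A) tails. Of the 13 variants measured 8 passed the filter, and 2, *H1foo* and *H2afb1*, were listed at 0 in every library. *H3f3a*, for H3.3, was at 456, 482 and 590.5 FPKM in WT and 437, 408 and 504 FPKM in *Esrra*-/-. Of the 8 variants tested 0 were called, beside 4.63% of all genes tested. In limma 3 had an unadjusted p under 0.05, beside 10.8% of all genes tested. The log2 fold change was below 0 in all 8 (median −0.25), as in 45.7% of all genes tested. *H2afz*, for H2A.Z, had 140, 163 and 141 FPKM in WT and 94.4, 110.1 and 96.3 FPKM in *Esrra*-/-. The genotypes did not overlap for it, and the log2 fold change was −0.56 with a standard error of 0.14 (limma, adjusted p = 0.295), just short of the fold for a call. *Cenpa*, the centromeric H3, averaged 14.9 ± 1.46 FPKM (WT) and 10.4 ± 2.36 FPKM (*Esrra*-/-).

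In the list for transcription and 3′ processing of histone mRNA, 2 of 23 genes were called lower and 0 higher (background 3.28% and 1.35%). They were *Snrpf* and *Snrpg*, whose products are Sm proteins that also serve in splicing, with log2 fold changes of −0.66 and −0.63. *Slbp*, for the protein that binds the hairpin, had 24.2, 24.8 and 33.1 FPKM in WT and 20.9, 18.4 and 21.6 FPKM in *Esrra*-/-, with no overlap and a log2 fold change of −0.42 (limma, adjusted p = 0.418). *Npat*, the coactivator of histone genes, was at 1.86, 1.93 and 1.10 FPKM in WT and 1.63, 1.62 and 1.15 FPKM in *Esrra*-/-. Of 24 histone chaperones and import factors 2 were called lower (background 3.28%), and *Hat1*, which acetylates new H4, fell to 4.72 ± 1.33 FPKM from 8.09 ± 0.401 FPKM. *Rbbp7*, its partner, had a log2 fold change of −0.51. In the list for decay of histone mRNA 0 of 9 genes were called, and 0 had an unadjusted p under 0.05 in limma (background 4.63% and 10.8%). *Dis3*, an exosome nuclease, averaged 3.82 ± 1.04 FPKM (WT) and 2.76 ± 0.330 FPKM (*Esrra*-/-). *Slbp* and a few other genes stand in more than 1 of these lists.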

How the data were processed

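Libraries from the duodenal epithelium of 6 mice (3 WT, 3 *Esrra*-/-) were used. The authors ran fastQC on the paired-end reads, used Kallisto with mm9 for quantification and DESeq2 for FPKM, and the deposited FPKM table was used as it stands. The transcript annotation is not given in the sources used here. A second deposited table, the authors' own comparison (mean counts, fold changes, p-values), was not used. FPKM values give no depth, so precision rests on the spread between mice.

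Genes with a mean above 1 FPKM were tested on log2(FPKM + 0.1) with limma 3.58.1 in R 4.3.3 (lmFit, eBayes with trend, no covariate, Benjamini-Hochberg adjustment over all genes tested), tested on simulated data. Sequences, 31-base words and motifs came from NCBIM37, the assembly of mm9, with GENCODE M1, which held all 67 symbols.

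The members and lists were chosen with earlier results of these data known. Values per library were given for the 3 most abundant members of each class, called members, those with the smallest p and those with agreeing values, and for at most 2 genes of most lists by smallest p. *H3f3a*, *Slbp*, *Npat*, *H2afx*, *Hist1h2ac*, *Hist1h4m* and the other low members were named after their values were seen. Alternatives were a pseudocount of 1, other filters, quantile and median-ratio scaling, no trend, a replicate block, a term for transcripts of chromosome Y, summed copies and each library left out.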

Additional observations from a re-analysis of the deposited data

How the results depend on the processing

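The members called lower, 2 as reported, numbered 8 with no filter on low values, 0 under quantile normalization, 1 with agreeing members summed, 1 with members sharing at least 80% of their 31-base words summed (chosen after seeing the data), 0 at an adjusted p under 0.05, and 0 to 2 with each library left out in turn. Those called higher, also 2, numbered 5 with no filter, 0 with FPKM above 1 in all 6 libraries, 3 with no trend, 3 without WT replicate 3 and *Esrra*-/- replicate 3, 1 with a term for transcripts of chromosome Y, 1 with near-copies summed, 0 at an adjusted p under 0.05, and 1 to 4 with each library left out. Summing and stricter filters leave fewer rows, and for the other changes the cause was not tested. The fit with no filter held 17679 genes, and the shares of these that were called are not given here. Its counts of 8 lower and 5 higher among 65 members therefore have no background to be set against. The median log2 fold change of the members tested, 0.28, was −0.062 over 65 members with no filter, 0.61 without WT replicate 3 and *Esrra*-/- replicate 3, the libraries without transcripts of chromosome Y (chosen after seeing the data), and 0.13 to 0.46 with each library left out.

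The replicate block, with the replicate number as a term, left *Hist1h2ao* and *Hist1h2ap* lower (limma, adjusted p = 0.104) and had *Hist2h3b* in place of *Hist1h4k* among the members called higher. The *Hist1h4k* log2 fold change stayed at 1.00 there, and its unadjusted p was 0.0617. A pseudocount of 1 made the same exchange, with the fold down to 0.55. Deviations of same-numbered libraries correlated at 0.0116, 0.263 and 0.376 across genes. As 1 of the 3 is not above 0.1 and no label ties the numbers to a litter or day, the numbers were not taken as pairs, although the replicate 3 libraries both lack transcripts of chromosome Y. *Esrra* kept its log2 fold change of −2.92 under the block with an adjusted p of 0.0709. It was −2.60 without the libraries lacking transcripts of chromosome Y (limma, adjusted p = 0.190). With each library left out it was −3.19 to −2.66, with an adjusted p of 0.0229 to 0.185 in limma. FPKM values set no floor from depth, so low members cannot be called absent.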
